A study of Capra hircus with 6 samples.

Results

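The regions described here are those at the genes of the AP-1 transcription factors of the goat: *FOS*, *FOSB*, *FOSL1* and *FOSL2* (the Fos subfamily), *JUN*, *JUNB* and *JUND* (the Jun subfamily), and the related *ATF3* and *BATF*. Every row of the authors' deposited table of differing accessible regions was taken, with no limit on p, when its centre lay inside 1 of these 9 genes or within 50000 bp of an end of it. This gave 84 of 30714 rows. Positions of the genes came from RefSeq for the assembly ARS1.2, and no row was in reach of more than 1 of the 9 genes.

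AP-1 is a dimer of basic leucine zipper (bZIP) proteins that binds short DNA sites in promoters and enhancers. Fos proteins do not pair with themselves and need a Jun partner, whereas Jun proteins also form dimers of their own. Many of these genes are immediate early genes, switched on within minutes by growth factors, stress or the MAP kinase cascades, and in the mouse mammary gland AP-1 activity is known to climb when milk removal stops and involution starts.

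The study profiled mammary epithelial cells of *Capra hircus* by ATAC-seq, which reads out DNA open to the Tn5 transposase. It held 3 dry period libraries and 3 libraries of the lactation period, with no genotype, breed, age or treatment given beyond the period. Whether libraries of a period stand for different goats is not given either, so the authors' p-values may measure technical spread alone. The table has no value for a single library: each row carries a fold change, a p-value and a Benjamini-Hochberg FDR for the whole comparison, and depth is unknown. Rows are named as belonging to the first or the second compared group, here set 1 and set 2, and each set is taken to hold the regions more open in 1 of the periods. The table does not say which period is which set, so all directions are given by set. Its title puts the dry period first, but whether the numbering follows that order is not stated. A table of differences also holds no level of accessibility, and the labelled cell type could not be checked against its markers.

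Most regions at the AP-1 genes belonged to set 1, and most did not pass an FDR of 0.05. Set 1 held 68 of the 84 listed regions (81.0%, Wilson 95% interval 71.3% to 87.9%, counting error only) and set 2 the other 16, beside 76.6% of the 26413 listed regions within the same distance of any protein-coding gene. An FDR under 0.05 was reached by 21 regions, 25.0% of the 84, where 27.8% of all listed rows and 28.1% of those near a protein-coding gene passed. By set, 20 of 68 set 1 regions passed (34.2% of all set 1 rows did) and 1 of 16 set 2 regions (9.23% of all set 2 rows). These shares lie near the background and mark nothing particular to AP-1. The rest of the 84 were listed at an unadjusted p under 0.001 only.

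Counted by gene, 7 of the 9 had a region with an FDR under 0.05 within 50000 bp, where 51.4% of all 19063 protein-coding genes had one. *FOS* and *JUN*, the founding pair of the family, had 8 and 7 listed regions and 0 that passed. Both are alone in their windows, and of all genes with at most 1 other protein-coding gene in the window 37.2% had a region that passed, beside 71.3% of those with 5 or more. All 7 genes had such a region in set 1 (48.9% of all genes), and *JUND* had 1 in set 2 as well (5.06% of all genes). Within 10000 bp the same 7 genes had a region that passed, beside 29.7% of all genes, and within 3000 bp only *FOSB* and *FOSL1* did, beside 22.4%. In 15 of the 21 regions that passed, another protein-coding gene lay nearer than the AP-1 gene. The other 6 were nearest to *FOSB* (2 regions), *FOSL1*, *FOSL2*, *JUND* and *BATF*, and all 6 were in set 1.

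**Figure D1:**
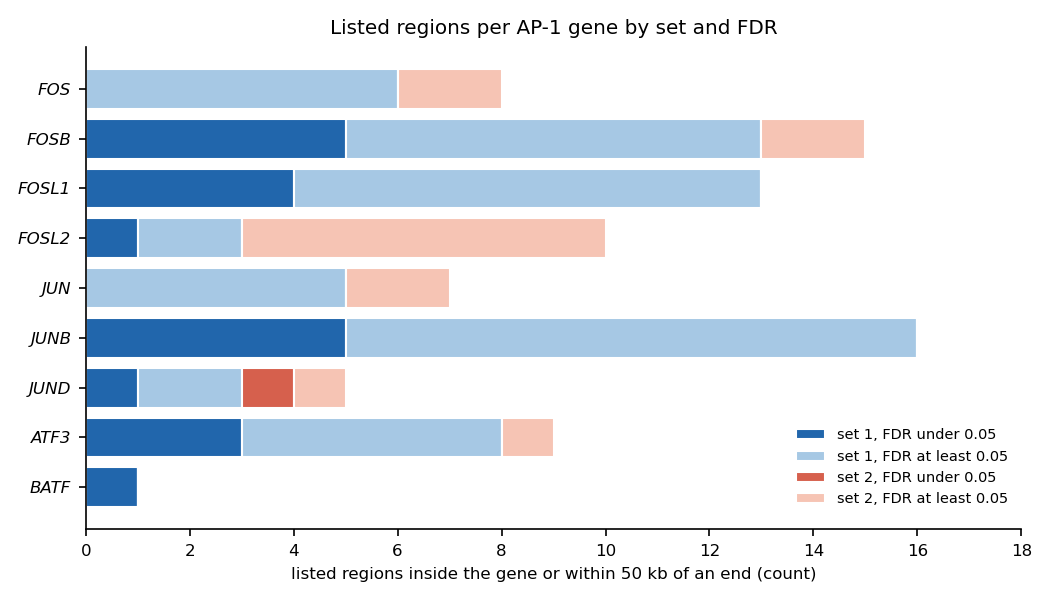
Number of listed regions (x axis) inside each AP-1 gene or within 50 kb of an end (y axis), coloured by set and by whether the deposited FDR was under 0.05. *JUNB* has 16 regions and *BATF* 1; only the *FOSL2* bar is mostly set 2 (7 of 10), and *FOS* and *JUN* have no region that passed.

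The FDR limit was stricter for set 2. The largest p with an FDR under 0.05 per the authors' deposited table was 6.21e-05 in set 1 and 5.63e-06 in set 2, so that equal p-values counted differently. With 1 limit for both sets, an unadjusted p under 1e-05, 18 of the 84 regions passed (17.0% of all listed rows did), 15 in set 1 and 3 in set 2. Of these 3 set 2 regions 2 lie within 50000 bp of *FOSL2* and 1 of *JUND*. The farther *FOSL2* region, 45199 bp away, lies nearer to *BRE*, and the *JUND* region lies inside *LSM4*. Set 2 regions at the AP-1 genes had a median fold change of 3.06 per the authors' deposited table (1.48 to 5.60) and set 1 regions one of 2.10 (1.28 to 4.70). Over all listed rows the medians were 3.59 and 2.39, in the same order; these medians are a description with no test.

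**Figure D2:**
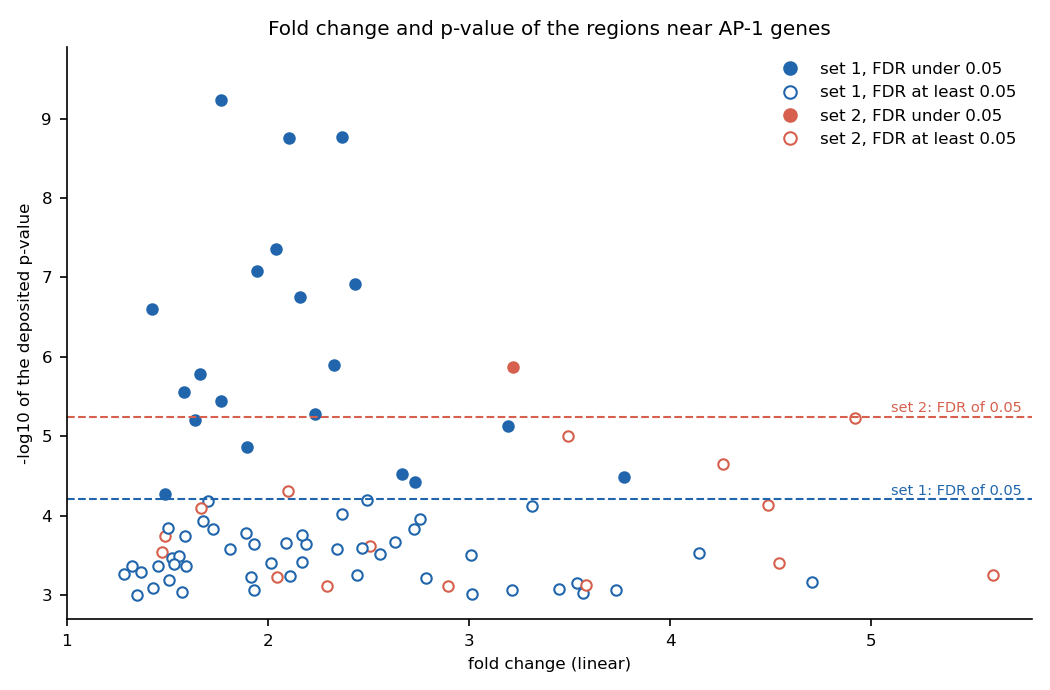
Linear fold change (x axis) against -log10 of the deposited p-value (y axis) for the 84 regions near AP-1 genes, coloured by set, filled where the FDR was under 0.05; dashed lines mark the largest p that passed in each set. Between the lines lie 4 open set 2 points (3 within 50 kb of *FOSL2*, 1 of *FOSB*), where a set 1 region of the same p would have passed.

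*FOS* encodes the inducible partner of Jun that gave the family its name. It is the only protein-coding gene in its 50000 bp window and had 6 set 1 and 2 set 2 regions, none with an FDR under 0.05. Closest were 2 narrow set 1 regions past its high-coordinate end, 471 and 1071 bp away, with fold changes of 1.35 (FDR = 0.270) and 1.59 (FDR = 0.0976) per the authors' deposited table. Both set 2 regions lay farther out on that side. The nearer of them, on chromosome 10 at 16650001 to 16650200, 14671 bp away, had the highest fold change at *FOS* per the authors' deposited table, 4.49 (p = 7.29e-05, FDR = 0.237). On the low-coordinate side the 4 regions were all in set 1, with fold changes of 1.28 to 2.02 per the authors' deposited table. The set 1 regions of *FOS* thus lay on both sides of the gene and the set 2 regions on 1 side, beyond them. With the window widened to 100000 bp, the authors' deposited table held a set 1 region that passed, 56021 bp from *FOS* on chromosome 10 at 16691101 to 16691800 (fold change of 2.18, FDR = 0.00149), which lies nearer to *TMED10*, a gene of vesicle transport.

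*FOSB*, a close relative of *FOS* that is also induced by stimuli, lies among 6 other protein-coding genes and had 15 listed regions, 13 of them in set 1. The 2 set 2 regions were at the gene itself, and set 1 regions flanked them on both sides. One set 2 region lay inside *FOSB* (fold change of 1.48 per the authors' deposited table, FDR = 0.485) and the other 110 bp past its high-coordinate end on chromosome 18 at 54134601 to 54134900, at 2.10 per the authors' deposited table (p = 4.82e-05, FDR = 0.187). Only 2200 bp farther on, at 54136801 to 54137100, was a set 1 region that passed, with a fold change of 1.66 per the authors' deposited table (p = 1.62e-06, FDR = 0.00416). Over all listed regions on the numbered chromosomes, 327 of 22314 in set 1 (1.47%) and 300 of 7664 in set 2 (3.91%) had a region of the other set within 2500 bp. Among regions with a p under 0.0001 per the authors' deposited table, the counts were 28 of 9029 (0.310%) and 29 of 2253 (1.29%); both limits were set after this pair was seen. The lowest FDR near *FOSB* per the authors' deposited table, 1.08e-05, belonged to a set 1 region 28810 bp away inside *VASP*, which encodes a regulator of actin filaments (fold change of 1.77). Another set 1 region lay inside *ERCC1*, a DNA repair gene, at a fold change of 1.42 per the authors' deposited table (FDR = 0.00110). Between *ERCC1* and *FOSB*, 2 further set 1 regions passed, with fold changes of 1.90 (FDR = 0.0182) and 1.49 (FDR = 0.0452) per the authors' deposited table. The first lies nearer to *ERCC1* and the second nearer to *FOSB*.

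*FOSL1* encodes Fra-1, a Fos protein that lacks the strong activation domain of FOS. It lies in the densest window, with 11 other protein-coding genes, and all 13 of its listed regions were in set 1. Over all genes with 5 or more others in their window, set 2 held only 6.75% of the listed regions, counted per gene. Inside the gene were 2 of them, with fold changes of 1.93 (FDR = 0.112) and 2.49 per the authors' deposited table; the FDR of the second, 0.0505, fell just short. Past its high-coordinate end, 1948 bp away on chromosome 29 at 44424701 to 44425000, was a region that passed, at a fold change of 2.73 per the authors' deposited table (FDR = 0.0362). The lowest FDR at *FOSL1* per the authors' deposited table, 2.57e-05, was that of a 600 bp wide region 8398 bp away at 44431001 to 44431600 (fold change of 2.10). This region lies nearer to *C29H11orf68*, at 3947 bp. On the other side a region 2981 bp from *FOSL1*, next to the growth factor binding protein gene *FIBP*, had a fold change of 1.77 (FDR = 0.00736) per the authors' deposited table, and one inside *SNX32*, a sorting nexin gene, 2.44 (FDR = 0.000646). The 4 regions that passed at *FOSL1* thus lay on both sides of it, 2 of them within 3000 bp. Only 1 of the 4 had *FOSL1* as its nearest gene.

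*FOSL2*, which encodes Fra-2, differed from the other 8 genes in its set: 7 of its 10 listed regions were in set 2, none of them with an FDR under 0.05. It is the only protein-coding gene in its window. On the low-coordinate side 3 set 2 regions lay together, 9378 to 11778 bp away, of which the one at 71060801 to 71061000 on chromosome 11 had the smallest p per the authors' deposited table (fold change of 4.26, p = 2.23e-05, FDR = 0.118). Past the high-coordinate end, 3499 bp away at 71098301 to 71098800, was the set 2 region of the lowest FDR at *FOSL2* per the authors' deposited table, at a fold change of 4.92 (p = 5.93e-06, FDR = 0.0519). A set 1 region followed 1600 bp farther on, at 71099901 to 71100400, with a fold change of 3.19 per the authors' deposited table (p = 7.32e-06, FDR = 0.0119). The set 2 region of this pair had the smaller p and the larger fold change, yet only the set 1 region passed. Another 3 set 2 regions, 37449 to 46299 bp away, lay nearer to *BRE* and had fold changes of 2.90, 3.50 and 4.54 per the authors' deposited table. The remaining 2 set 1 regions, inside *FOSL2* and 6628 bp before it, had an FDR of 0.165 and 0.247 per the authors' deposited table.

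**Figure D3:**
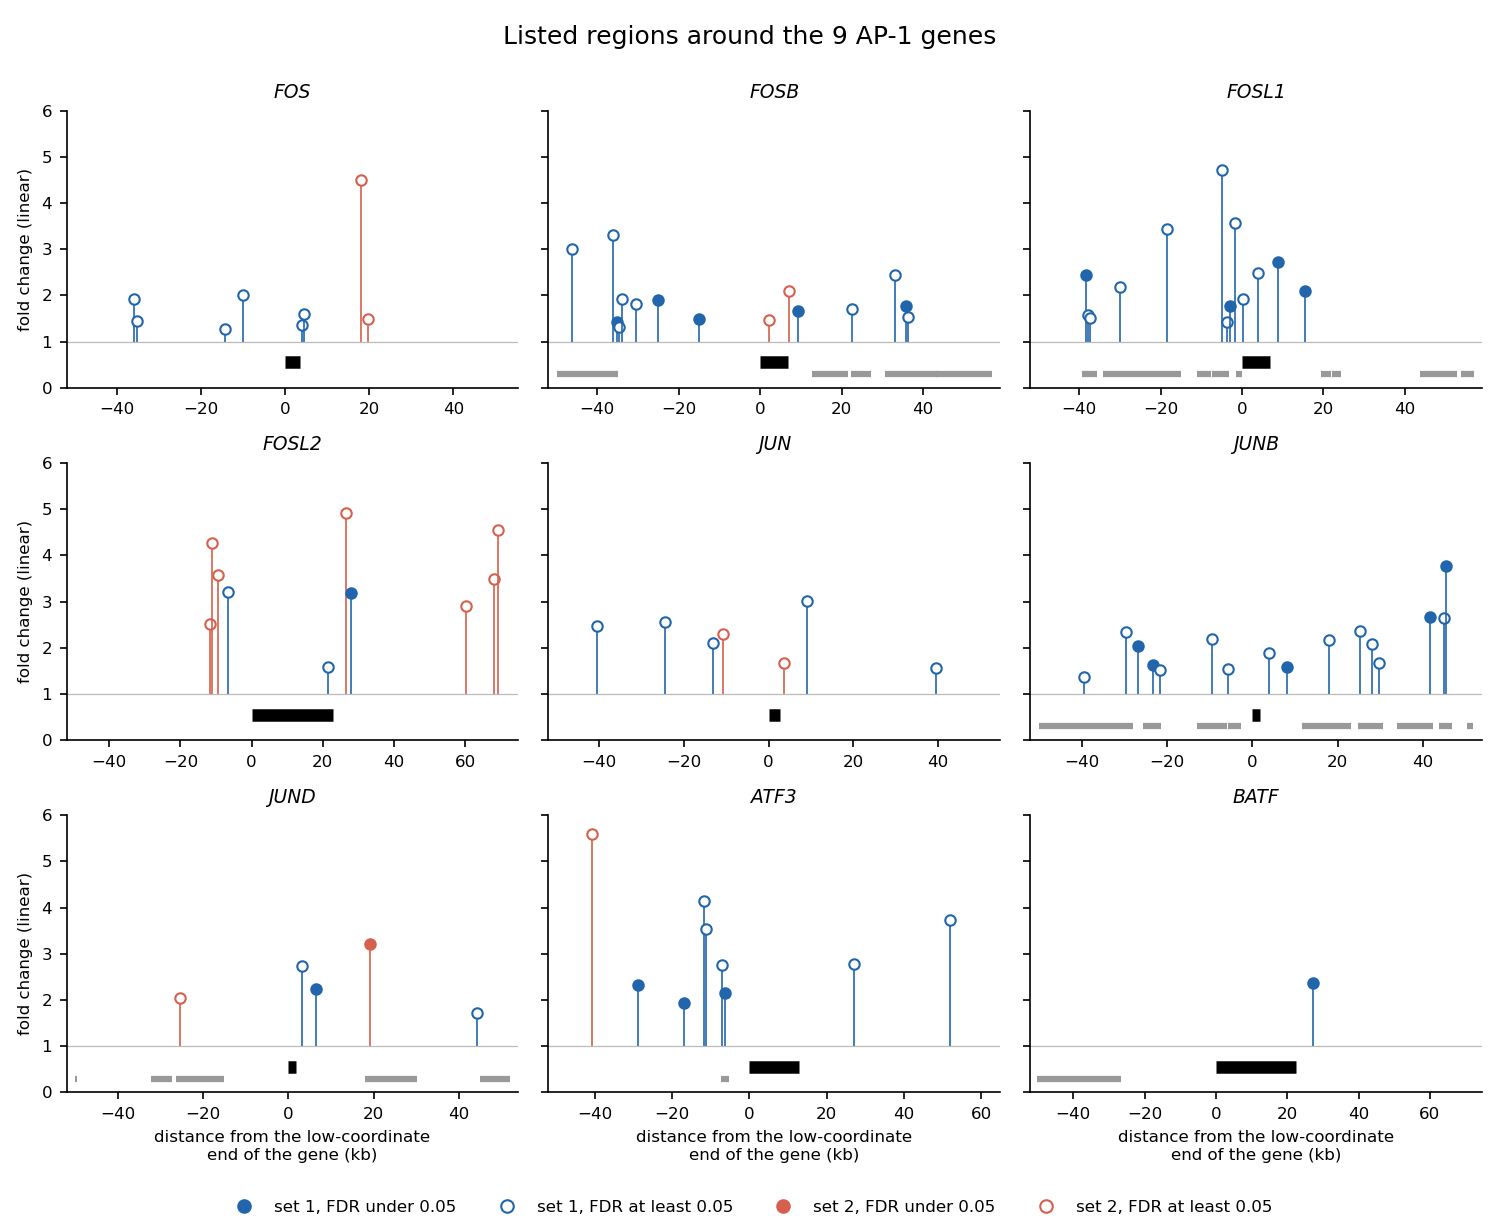
Listed regions around each of the 9 genes: distance of the region's centre from the low-coordinate end of the gene in kb (x axis) and linear fold change (y axis), coloured by set and filled where the FDR was under 0.05. Black bars are the AP-1 gene and grey bars the other protein-coding genes. *FOSL2* shows 7 set 2 regions in 3 places, and *FOSL1*, *JUNB* and *BATF* none.

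*JUN*, which encodes the Jun protein that pairs with FOS and also with itself, had 5 set 1 and 2 set 2 regions and no other protein-coding gene in its window. Nearest was a set 2 region 986 bp past the high-coordinate end, on chromosome 3 at 33532401 to 33532700, with a fold change of 1.67 per the authors' deposited table (p = 7.99e-05, FDR = 0.250). The other set 2 region, 10772 bp before the gene, had a fold change of 2.30 per the authors' deposited table and lay 2300 bp from a set 1 region of 2.11. The lowest FDR at *JUN* per the authors' deposited table was 0.119, for a set 1 region 40622 bp away (fold change of 2.47) that lies nearer to *MYSM1*. No region at *JUN* within 50000 bp came close to the FDR limit. Just beyond, 57036 bp away at 33588501 to 33588700, the authors' deposited table had a set 1 region with a fold change of 11.0 (FDR = 0.0491); *JUN* is its nearest protein-coding gene.

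*JUNB* encodes a Jun protein that activates less strongly than JUN and can oppose it. It had the most listed regions of the 9 genes, 16, all of them in set 1, among 9 other protein-coding genes. Set 2 is scarce in such dense windows, with 6.75% of listed regions over all genes with 5 or more others. Only 1 of the 16 had *JUNB* as its nearest gene, 2180 bp away on chromosome 7 at 98111801 to 98112100, with a fold change of 1.89 per the authors' deposited table (FDR = 0.0920). The 800 bp wide region at 98115701 to 98116500, 6330 bp from *JUNB* and nearer to *HOOK2*, a microtubule adaptor gene, passed at a fold change of 1.59 per the authors' deposited table (FDR = 0.00604). The lowest FDR at *JUNB* per the authors' deposited table was 0.000301, for a region 26778 bp away next to the kinase gene *MAST1* (fold change of 2.04). Inside *RTBDN* (1.64), *ASNA1* (2.67) and *C7H19orf43* (3.77) were the other 3 that passed per the authors' deposited table. All 5 lay outside *JUNB*, on both sides of it.

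*JUND*, the Jun gene expressed most constantly across tissues, lies 5.74 Mb from *JUNB* on the same chromosome and had 5 listed regions, 3 in set 1 and 2 in set 2. A set 1 region 4684 bp past its high-coordinate end, on chromosome 7 at 103858101 to 103858500, passed at a fold change of 2.24 per the authors' deposited table (p = 5.26e-06, FDR = 0.00949). The only set 2 region of all 84 that passed was 17184 bp from *JUND*, at 103870601 to 103871000, with a fold change of 3.22 per the authors' deposited table (p = 1.34e-06, FDR = 0.0190). It lies inside *LSM4*, a gene for an RNA-binding protein of the splicing machinery. The 2 regions that passed near *JUND* were thus of opposite sets, 12500 bp apart on the same side of the gene, and only the set 1 region had *JUND* as its nearest gene. Another region, 1284 bp from the gene and in set 1, had a fold change of 2.73 per the authors' deposited table (FDR = 0.0850).

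*ATF3*, a stress-induced bZIP factor that can act as a repressor, had 8 set 1 regions and 1 set 2 region, and none within 3000 bp. The 3 that passed were all in set 1 on the low-coordinate side, between *BATF3* and *ATF3*. All 3 had *FAM71A*, and not *ATF3*, as their nearest protein-coding gene. The region on chromosome 16 at 69560601 to 69561100, 16906 bp away, differed 1.95-fold (FDR = 0.000485) per the authors' deposited table. One inside *FAM71A*, 6356 bp from *ATF3* at 69571201 to 69571600, had 2.16 (FDR = 0.000851) per the authors' deposited table. The farthest, 28756 bp away, had 2.33 (FDR = 0.00350) per the authors' deposited table. The set 2 region, 40856 bp away, had the highest fold change of all 84 per the authors' deposited table, 5.60, but an FDR of 0.670. It lies nearer to *BATF3*, another bZIP gene 65.7 kb from *ATF3*, so that regions between the genes count for both: *BATF3* had 4 listed regions, and 2 of the 3 that passed were within reach of both genes.

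*BATF*, a bZIP partner of Jun best known from lymphocytes, had a single listed region, in set 1. On chromosome 10 at 16405301 to 16405800, 4616 bp past its high-coordinate end, this region had a fold change of 2.37 per the authors' deposited table (p = 1.71e-09, FDR = 2.53e-05). By p it was the strongest of the 34 regions that had an AP-1 gene as their nearest gene. *JDP2*, which encodes a repressor of AP-1, lies between *BATF* and *FOS*, which are 231.0 kb apart. *JDP2* had 2 listed regions, both on its *FOS* side: 1 in set 1 (fold change of 2.43 per the authors' deposited table, FDR = 0.118) and 1 in set 2 (4.86, FDR = 0.314). Over the whole stretch of *BATF*, *JDP2* and *FOS*, only the *BATF* region passed.

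**Figure D4:**
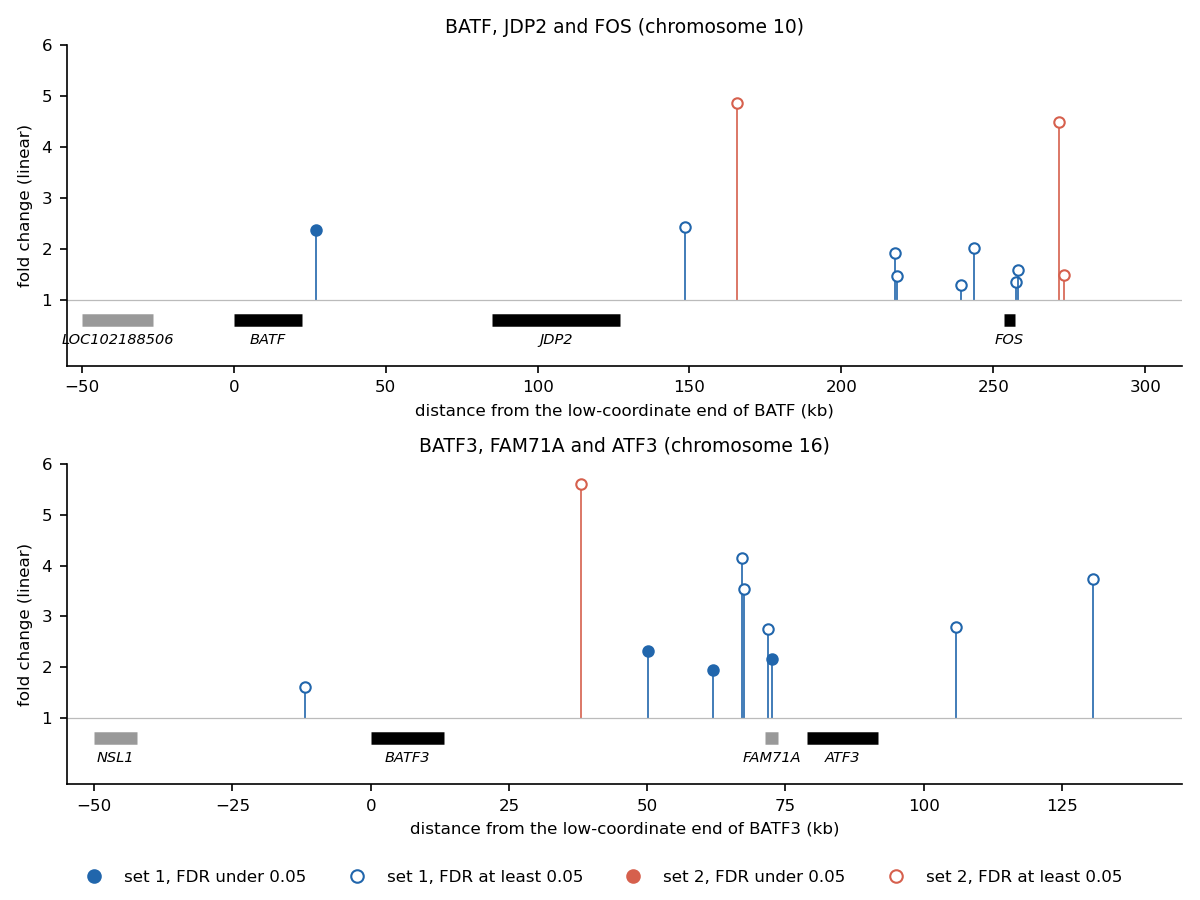
Listed regions along the *BATF*-*JDP2*-*FOS* stretch (top) and the *BATF3*-*ATF3* stretch (bottom): distance from the low-coordinate end of the first gene in kb (x axis) and linear fold change (y axis), coloured by set and filled where the FDR was under 0.05; bars are protein-coding genes (black, bZIP genes). A single filled point marks the *BATF* region in the top map, and 3 filled set 1 points lie between *BATF3* and *ATF3* or inside *FAM71A* in the bottom map.

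Regions were not spread evenly over the family's genes. Of the 84, 4 lay inside a gene (1 at *FOSB*, 2 at *FOSL1*, 1 at *FOSL2*), 10 outside within 3000 bp of an end, 16 from there to 10000 bp and 54 farther away. The centre nearest to the 50000 bp limit was 46299 bp from *FOSL2* (fold change of 4.54 per the authors' deposited table), and the first beyond it 50367 bp from *JUND* (2.77, FDR = 0.00299). Listed regions were most numerous at *JUNB*, *FOSB* and *FOSL1*, whose windows hold 6 to 11 other protein-coding genes. With *JUND*, these 4 genes had a median of 14 listed regions, and all 4488 genes with 5 or more others in their window had a median of 6. That class is wide. Genes with exactly as many others as *FOSL1*, *JUNB*, *FOSB* and *JUND* had medians of 10, 8, 5 and 4. Of those genes 39.0%, 11.2%, 4.27% and 44.2% had as many listed regions or more. For *FOS*, *FOSL2*, *JUN*, *ATF3* and *BATF*, with at most 1 other gene, the median was 8, and it was 2 over all 5483 such genes. The matched shares for these 5 were 5.96%, 3.44%, 8.22%, 4.75% and 75.5%. As background, 79.7% of all protein-coding genes had a listed region and 37.6% one of set 2; here 9 of 9 and 6 of 9 did. The split by set also went with gene density. Counted per gene, set 2 held 6.75% of listed regions where 5 or more others were in the window and 31.2% where at most 1 was. For the AP-1 genes of these classes it held 8.16% (4 of 49) and 34.3% (12 of 35), near that background. *FOSL2* had the highest count of set 2 regions of the 9 genes and was singled out here for that. In all, 61 of 19063 genes (0.320%) had 7 or more, and among the 1947 genes alone in their window 18 (0.924%) had. None of its 7 reached an FDR under 0.05. Only 4 had *FOSL2* as their nearest gene and the rest lay nearer to *BRE*. Within 10000 bp there were 2, and within 3000 bp 0. *FOS*, *FOSB*, *JUN* and *JUND*, with 2 each, shared that number or more with 14.0% of genes. These shares describe genes that overlap in their windows and carry no test.

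**Figure D5:**
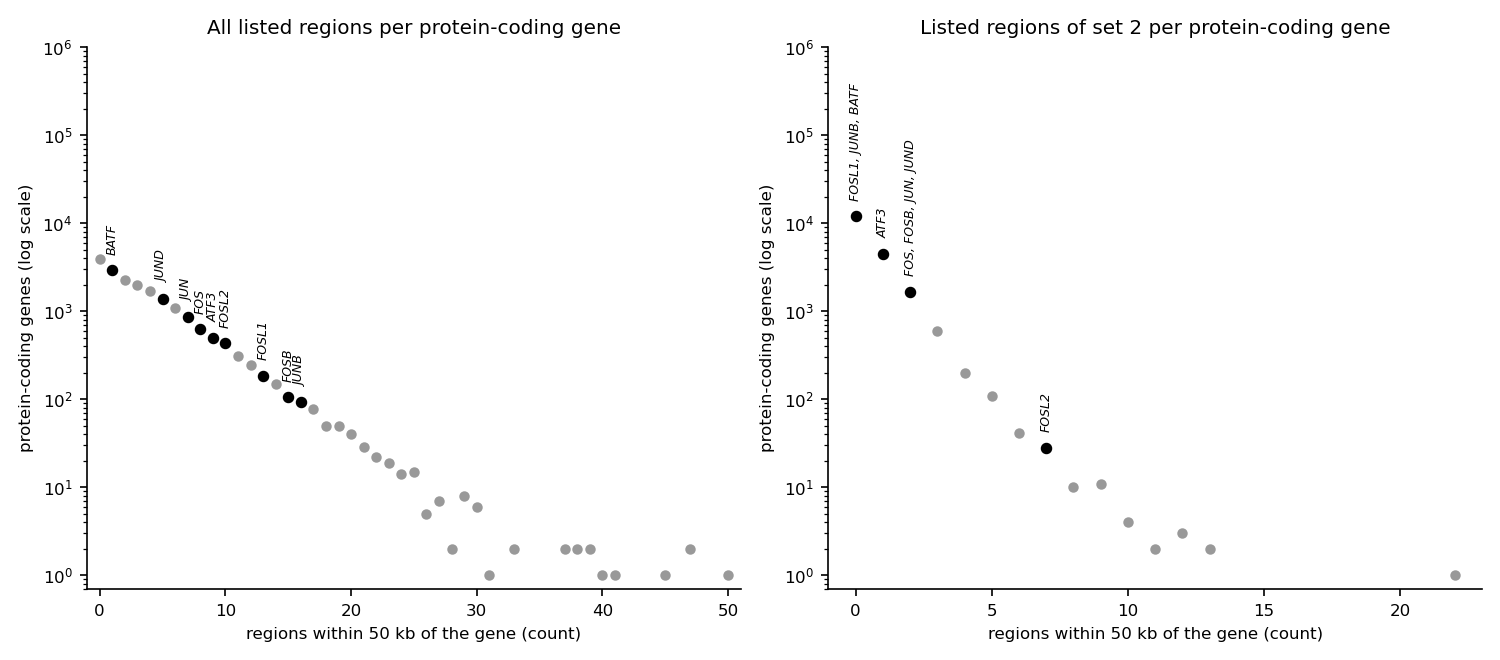
Number of protein-coding genes (y axis, log scale) with each count of listed regions within 50 kb (x axis), for all listed regions (left) and those of set 2 (right). Black points carry the AP-1 genes with that count; *FOSL2* sits at 7 set 2 regions, where 28 genes lie, and the other 8 genes at 0 to 2.

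Genes around AP-1 in its pathway were counted the same way, by any region with an FDR under 0.05 within 50000 bp, which 51.4% of all protein-coding genes had (48.9% in set 1 and 5.06% in set 2). These lists were not tested against the other genes. Of 23 other bZIP genes 16 (69.6%) had one, 14 in set 1 and 4 in set 2 (*MAFF*, *NFE2L2*, *NFE2L3* and *BACH2*, with *MAFF* and *BACH2* in both). The *NFE2L3* region, inside the gene, had a set 2 fold change of 3.56 per the authors' deposited table (FDR = 1.05e-05), and that 17380 bp from *NFE2L2*, the regulator of the oxidative stress response, and nearer to *HNRNPA3*, 4.25 (FDR = 5.98e-05). Inside *BACH2*, a repressor known from B cells, a set 2 region had a fold change of 1.76 per the authors' deposited table (FDR = 0.000327). Near the stress factor *ATF4*, and nearer to *RPS19BP1*, a set 1 region had 2.80 (FDR = 6.78e-05) per the authors' deposited table. Within 50000 bp of *CREB5*, singled out after its values were seen, all 13 listed regions were in set 2 and 0 had an FDR under 0.05.

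In the MAP kinase cascade above AP-1, 20 of 35 genes (57.1%, beside 51.4% of all genes) had a region that passed, all 20 in set 1 and 2 (*DUSP5* and *ELK3*) in set 2 as well. *MAPK11* and *MAPK12* have the same region of smallest p. The strongest by p lay 1587 bp from *DUSP6*, a phosphatase that switches off ERK, with a set 1 fold change of 1.62 per the authors' deposited table (FDR = 4.39e-09). Set 1 regions near *DUSP5* (6.11, FDR = 9.87e-06), *MAP2K2* (2.36, FDR = 2.05e-05) and *MAPK14* (2.02, FDR = 4.7e-05) followed per the authors' deposited table; the *MAP2K2* region lies nearer to *CREB3L3* and that of *MAPK14* to *SLC26A8*. Of 22 other immediate early genes 13 (59.1%, beside the same 51.4%) had a region that passed, all 13 in set 1 and *SGK1* in set 2 as well. They were led per the authors' deposited table by *IER2* (set 1, 2.37, FDR = 1.42e-09), *ZFP36L1* (set 1, 2.62, FDR = 1.52e-06), *KLF6* (set 1, 2.69, FDR = 1.08e-05) and *SGK1* (set 2, 2.74, FDR = 0.000281). Of 19 genes known as AP-1 targets 16 (84.2%, beside 51.4% of all genes) had one, all 16 in set 1 (48.9% of all genes) and *MMP13* in set 2 as well. *MMP1* and *MMP3*, neighbouring collagenase and stromelysin genes, have the same region of smallest p and are not independent. *EZR* (1.68, FDR = 0.000129) and *TGFB1* (2.55, FDR = 0.000239) had the smallest p among them per the authors' deposited table, both in set 1, and the *TGFB1* region lies nearer to *BCKDHA*. The same count was 8 of 10 for luminal and basal epithelial markers, 5 of 10 for immune markers and 5 of 10 for fibroblast and endothelial markers, beside 51.4% of all genes and with only 10 genes in each list. Of the epithelial markers, the smallest p per the authors' deposited table belonged to set 1 regions of *KRT18* (1.88, nearer to *EIF4B*), *KRT19* (2.23), *CDH1* (2.56) and *KRT8* (4.48). Those of *KRT18* and *KRT8* lie close on chromosome 5, starting at 26685301 and 26758601, so the counts of these 2 genes may not be independent. A set 2 region that passed was found for 0 epithelial markers and 2 immune markers, *MS4A1* and *CD14*, beside 5.06% of all genes. The *CD14* region lay 46477 bp away, nearer to *LOC102175120*. Of the fibroblast and endothelial markers 3 had one, *CDH5*, *VWF* and *TEK*, all 3 endothelial. A set 1 region that passed was found for 8 epithelial markers, beside 48.9% of all genes. The same held for 4 immune markers (*CD4*, *CD8A*, *CSF1R* and *CD14*) and 4 fibroblast and endothelial markers (*PECAM1*, *COL1A1*, *VWF* and *CDH5*). *PECAM1*, with 8 listed regions, *COL1A1*, with 7, and *CD4*, with 5, had no set 2 region. Differences between the lists were not tested. Listed set 2 regions were near 5 of the 10 epithelial markers, and at the basal marker *TP63*, with 6 of 8 regions in set 2, the one of smallest p fell just short of the limit (4.25, FDR = 0.0513 per the authors' deposited table). Other basal markers of the list differed from *TP63*. *KRT5* and *ACTA2* had 3 listed regions each, all in set 1, of which 2 and 1 passed. The *ACTA2* region that passed lies nearer to *STAMBPL1*. *KRT14* had 1 region in each set and 0 that passed. A part of other cell types in the AP-1 regions was not tested. Genes of these lists named for a set 2 region outside the 4 smallest p were picked after their values were seen.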

How the data were processed

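ATAC-seq was made on 3 dry period and 3 lactation libraries. Per the submitters' processing notes Bowtie2 2.2.5 and MACS2 were used, with no role given; for the caller of the differing regions, its thresholds and the genome build the sources used here give nothing. The authors deposited, per region, a width in bp (a column of another unit, end minus start), a signal value (a score, not used, since it is the fold change scaled by a constant in each set), a linear fold change (a ratio), and a p-value with its FDR. Depth per library is unknown.

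Members and gene lists were chosen with earlier results of these data known. Genes were matched by symbol to RefSeq (ARS1.2, 19063 protein-coding genes on numbered chromosomes; no strand, so ends stand for starts). Chromosome names were checked: on 29 of 29 chromosomes region centres lay within 1000 bp of a gene end more often for their own genes than for those of any other, and more often than after a shift of 100000 bp. List entries without a match, such as *MAFK*, *ELK1*, *CCN1*, *CCN2* and *TIMP1*, were not counted. Region positions are the authors', counted from 1. No test was run: p and FDR are those the authors deposited. All members were named, and per list up to 4 genes by smallest p; some list genes are not reported here. Assignment was tested on simulated data (Python 3.11.15, pandas 2.3.3). Alternatives changed distance, threshold, overlap and gene assignment.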

Additional observations from a re-analysis of the deposited data

How the results depend on the processing

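The counts depend mainly on the distance allowed. Of listed regions there were 84 within 50000 bp of an AP-1 gene, 14 within 3000 bp, 30 within 10000 bp, 128 within 100000 bp and 34 when a region counted only for its nearest protein-coding gene. Regions with an FDR under 0.05 numbered 21 of the 84, and 3 of 14, 9 of 30, 36 of 128 and 6 of 34 in those settings. Of all listed rows 27.8% passed, and the share of all regions that passed at 3000, 10000 and 100000 bp was not counted. There were 13 at an FDR under 0.01 and 12 with a fold change of at least 2 in addition. The 7 genes with such a region became 2 within 3000 bp, beside 22.4% of all protein-coding genes. Every other setting gave 5 to 9 genes. The 9 genes came within 100000 bp, where 64.4% of all protein-coding genes had such a region. No share over all features was counted for the nearest-gene, FDR under 0.01 and fold change settings, so those counts only describe these genes. The set 1 share of 81.0% was 70.6% for regions nearest to an AP-1 gene and 95.2% for those with an FDR under 0.05, and within its interval in the other settings. Taking any base of a region in place of its centre changed none of these 4 results. With 1 limit for both sets, an unadjusted p under 1e-05, it was 83.3%. Counts per single gene stayed within 1.5 times in 73 cases and moved further in 62. No paired analysis was possible because the table holds no value per library; leaving out single libraries was not possible for the same reason, and depth was not available to weigh single regions.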

Other observations

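Between 50000 and 100000 bp from an AP-1 gene the authors' deposited table held 15 further regions with an FDR under 0.05. Of these, 8 were in that range of *JUNB*, all 8 in set 1 and each nearer to another protein-coding gene. No share over all genes was counted for this range. The only one in set 2 lay 87831 bp from *FOSL1* on chromosome 29 at 44327901 to 44328300, with a fold change of 2.01 (FDR = 0.0168) per the authors' deposited table, next to *OVOL1*, an epithelial transcription factor gene. Near *BATF*, 57642 bp from it, the authors' deposited table had a set 1 region of fold change 2.56 (FDR = 5.82e-07), nearer to *LOC102188506*. *EGR1*, an immediate early gene like *FOS*, had 3 listed regions, all in set 2, with 0 that passed; it was singled out after its values were seen.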
